A study of Mus musculus with 36 samples.

Results

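The 9 genes described here encode transcription factors that mark and specify the projection neurons of the cerebral cortex: *Tbr1*, *Fezf2*, *Bcl11b*, *Bcl11a*, *Sox5*, *Bhlhe22*, *Nfia*, *Nfib* and *Cux2*. They were taken by name from the rows of both deposited count tables, as 9 of the 46603 annotated genes. All 9 had reads in every library, and all 9 passed the filter on low counts at both ages. The question was how far these factors follow *Chd8*, which encodes a chromatin remodeller linked to autism, and how they differ between embryonic day (E) 10.5 and E12.5.

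The RNA-seq libraries came from the forebrain of C57Bl/6J mouse embryos in 6 groups of 3. At E12.5, each library held the neocortex of 1 embryo with the genotype *Chd8* +/+ (wildtype), +/- (heterozygous for a null allele lacking an early exon), neo/neo or neo/-. The neo allele carries a neomycin cassette that lowers *Chd8* expression, so neo/neo is the mild and neo/- the severe hypomorph. At E10.5, each library held the telencephalic vesicles of 2 pooled embryos, either conditional knockouts (cKO, *sox1-Cre*; *Chd8* f/f) or controls (Ctrl, labelled as a combination of *Chd8* f/f and *Chd8* f/+). *sox1-Cre* recombines across the early neuroepithelium and not in blood vessels, meninges or blood, which the samples also hold. The labels do not say whether any control carried Cre, nor which litter an embryo came from.

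Cortical projection neurons are born from radial glia, directly or through intermediate progenitors, and the deep layers are made before the upper ones. A small network of transcription factors assigns their fates. *Tbr1* specifies the layer 6 and subplate neurons that project to the thalamus. *Fezf2* is already made in the dividing cells of the ventricular zone, and then directs neurons of layer 5 to project below the cortex together with *Bcl11b* (CTIP2). *Sox5* sets the order in which the deep-layer classes appear. *Bcl11a* (CTIP1) and *Bhlhe22* act in newborn and area-specific projection neurons, *Nfia* and *Nfib* promote differentiation of radial glia and neurons, and *Cux2* marks upper-layer neurons and some of their progenitors. *Bcl11b*, *Bcl11a*, *Sox5*, *Nfia* and *Nfib* are also made in other parts of the forebrain, so bulk tissue does not show which cells hold their transcripts.

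Levels are counts-per-million (CPM) values, scaled over all 18 libraries together, where 1 count is a read pair assigned to a gene. Libraries held 38774591 to 61051667 counts at E12.5 and 49632937 to 68488879 at E10.5, and the lowest count of a member in any library was 11. *Chd8* itself was lowest in the genotypes with a null or deleted allele. Its mean was 238 CPM ± 2.30 (SD, n = 3) in +/+, 167 ± 2.97 in +/-, 210 ± 5.68 in neo/neo, 149 ± 8.48 in neo/-, 169 ± 11.3 in Ctrl and 120 ± 4.83 in cKO, with no overlap between any mutant group and its control. These counts cover the whole gene, so aberrant transcripts are counted too. *Emx1*, a factor of the dorsal telencephalon that was picked as a tissue check after its values were seen, was between 35.9 and 69.6 CPM at E12.5 and between 23.8 and 38.8 CPM at E10.5. Markers of the ventral telencephalon were present in every E12.5 library, at a summed level of 646 to 864 CPM, and close to absent at E10.5, at 11.5 to 29.4 CPM. The +/- replicate 2 library stood apart: its diencephalon and midbrain markers summed to 384 CPM, against 159 to 204 CPM in the other E12.5 libraries. Among these markers *Tcf7l2* was at 159 CPM in that library and between 24.4 and 38.3 CPM in the others at E12.5. Markers of mesenchyme and meninges were also highest in that library, at 1126 CPM against 534 to 838 CPM in the others at E12.5.

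Sequence before the start sites is shown for 3 members that the results turn on: *Fezf2*, whose level did not separate the stages, and *Cux2* and *Sox5*, which fell in neo/-. The RefSeq promoter table (GRCm38.p6) held 7 of the 9 genes, *Cux2* with 2 start sites; *Bhlhe22* and *Nfib* had no entry. Each stretch is written 5′ to 3′ on the strand of the gene and ends at the start site, or earlier where an annotated exon begins. Capitals mark 6-base matches, on either strand, to CAGATG (an E-box bound by neurogenic basic helix-loop-helix factors) or to CTTTGA (the core bound by TCF/LEF, the DNA-binding partners of the Wnt pathway).
*Fezf2*, chr14:12345866-12346115, minus strand: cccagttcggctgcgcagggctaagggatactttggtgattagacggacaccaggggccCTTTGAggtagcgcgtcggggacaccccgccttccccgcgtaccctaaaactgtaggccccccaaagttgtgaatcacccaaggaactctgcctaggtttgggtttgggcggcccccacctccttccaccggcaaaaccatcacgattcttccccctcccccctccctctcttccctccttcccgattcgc
*Cux2*, second start site, chr5:122047892-122048075, minus strand: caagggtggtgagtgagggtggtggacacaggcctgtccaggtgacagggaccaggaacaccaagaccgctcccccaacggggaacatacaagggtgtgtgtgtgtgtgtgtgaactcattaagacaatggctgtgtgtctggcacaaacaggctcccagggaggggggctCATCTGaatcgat
*Sox5*, chr6:143947107-143947356, minus strand: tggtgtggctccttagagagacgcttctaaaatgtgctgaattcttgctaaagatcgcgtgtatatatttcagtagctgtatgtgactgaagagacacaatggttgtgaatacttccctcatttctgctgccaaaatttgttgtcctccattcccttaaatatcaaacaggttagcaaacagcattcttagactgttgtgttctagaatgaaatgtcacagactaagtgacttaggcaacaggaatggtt

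In the full 250 bases before the start, CTTTGA or its complement TCAAAG was present once each in *Tbr1*, *Fezf2*, *Bcl11b* and *Nfia*, and in 13.8% of all 32851 RefSeq promoter windows of that length. CAGATG or its complement CATCTG was present once in *Nfia* and once at the second start of *Cux2*, against 14.4% of all promoters. The E-box CAGCTG, also searched, was in none of the 8 windows and in 13.001% of all promoters; no 6-base match can belong to more than 1 of these motifs. A match says only that the letters are there, and no match says nothing about a factor. Not every window lay at the outermost start of the counted gene. That of *Nfia*, chr4:97581693-97581942, lay far upstream of the counted gene, which begins at 97772734. That of *Tbr1*, chr2:61804203-61804452, lay inside the gene, which begins at 61802930, and overlapped an annotated exon. Both *Cux2* windows and that of *Bcl11a*, chr11:24080445-24080694, also lay inside their genes, and that of *Bcl11b* did in part. All of these overlapped an annotated exon as well. The windows also differed in base composition. The first *Cux2* window was 80.0% G or C, while the *Sox5* window, inside the gene and far from its outermost annotated start, was 39.6%. The median over all promoters was 52.4%.

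The members were ordered by level per exon length, in CPM per kb, since raw CPM favours long transcripts. In +/+ neocortex at E12.5, *Tbr1* was the most abundant per length, at 41.4 CPM per kb ± 2.41 (SD, n = 3), which was above 93.1% of the genes tested. *Fezf2* followed at 30.3 ± 1.04 and *Bcl11b* at 23.6 ± 1.09. *Nfib*, at 20.2 ± 1.16, and *Bcl11a*, at 19.1 ± 0.258, overlapped in their libraries and could not be ordered. *Nfia* came next at 13.04 ± 1.22. *Sox5*, at 6.82 ± 0.386, and *Bhlhe22*, at 6.25 ± 1.32, overlapped as well, and *Cux2* was the lowest at 4.72 ± 0.324, near the middle of all tested genes (above 52.6%). The other neighbours in this order did not overlap.

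At E10.5 the order was different, and 8 of the 9 levels were lower. *Fezf2* alone remained high, at 30.6 CPM per kb ± 3.21 (SD, n = 3) in Ctrl, above 88.7% of the genes tested at that age. The next member, *Sox5*, was at 2.71 ± 0.158, with no overlap. From *Sox5* down through *Bcl11a*, *Cux2*, *Bcl11b*, *Nfib*, *Tbr1* and *Nfia*, each member overlapped its neighbour, so the lower part of the order was not resolved. *Bhlhe22* was the lowest, at 0.219 ± 0.141 CPM per kb, and did not overlap *Nfia*.

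**Figure D1:**
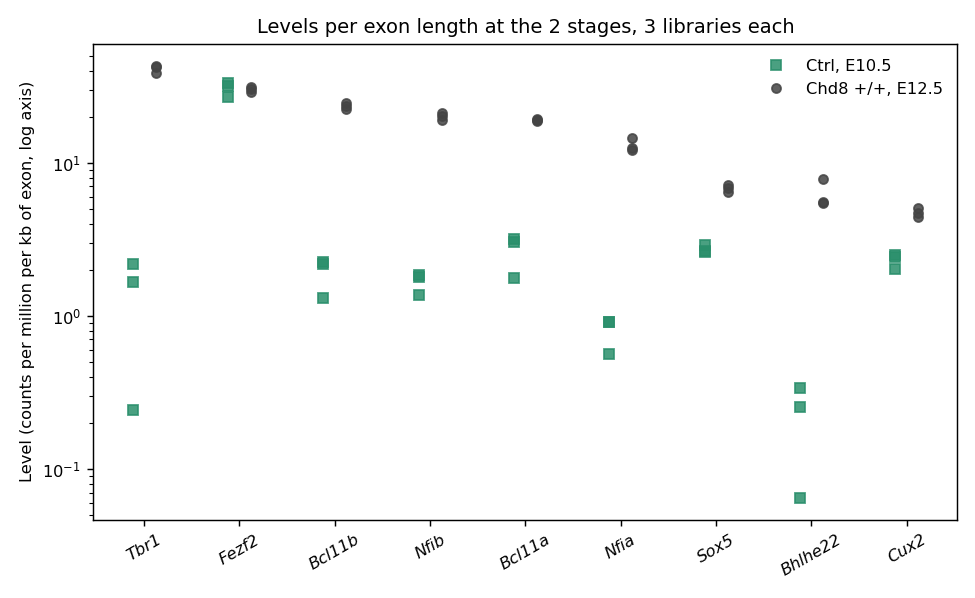
Level per exon length of each factor (vertical axis, CPM per kb, log scale) in the 3 Ctrl libraries at E10.5 (green squares) and the 3 *Chd8* +/+ libraries at E12.5 (grey circles), ordered by the E12.5 mean. The *Fezf2* points of both ages lie together between 26.96 and 33.0, while the other 8 factors lie higher at E12.5 without overlap; the lowest *Tbr1* square is Ctrl replicate 2.

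The comparison of control tissue across the stages, *Chd8* +/+ at E12.5 against Ctrl at E10.5, found 8 of the 9 members higher at E12.5 by edgeR's quasi-likelihood test at an adjusted p under 0.05. Over all 19565 genes tested, 69.9% passed, 34.0% higher and 35.9% lower. The libraries of the 2 groups did not overlap for those 8 members, all higher, nor for 70.8% of all genes, 34.4% higher. The median log2 fold change was 3.59 over the members and -0.02 over all genes. The contrast also carries differences in dissection, in pooling and in the *Chd8* allele (wildtype against flox), and each age came as a table of its own, so stage and set cannot be told apart. Fewer cells of a type and less RNA per cell cannot be told apart in bulk tissue either.

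*Tbr1* had the largest log2 fold change of the 9. *Tbr1* was at 212, 237 and 233 CPM in the +/+ libraries and 11.9, 1.33 and 9.16 CPM in the Ctrl libraries. Replicate 2 of Ctrl was far below the other two E10.5 controls, and the groups were widely apart with or without it. The log2 fold change was 4.92 ± 0.52 (SE), with an adjusted p of 2.01e-06, and it ran from 4.44 to 5.41 over the alternative settings. *Bhlhe22* behaved alike, at 18.6, 26.01 and 18.2 CPM against 0.845, 0.216 and 1.14 CPM (log2 fold change 4.81 ± 0.43, adjusted p = 2.12e-07). Again the lowest library was Ctrl replicate 2, in which *Bhlhe22* rested on 11 counts.

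*Nfia* rose from 9.85, 6.10 and 9.94 CPM in Ctrl to 132, 136 and 157 CPM in +/+ (log2 fold change 4.04 ± 0.25, adjusted p = 4.47e-09). Its paralogue *Nfib* rose from 26.7, 20.4 and 27.7 CPM to 283.6, 318 and 303 CPM (3.59 ± 0.21, adjusted p = 3.00e-09). The paralogues *Bcl11b* and *Bcl11a* rose by 3.62 ± 0.23 and 2.84 ± 0.19 on the log2 scale (adjusted p = 6.11e-09 and 1.04e-08). These 4 factors were between 7.18-fold and 16.4-fold higher at E12.5.

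*Sox5* and *Cux2* rose least. *Sox5* went from 37.4, 37.8 and 41.5 CPM to 92.3, 98.5 and 103 CPM, a log2 fold change of 1.33 ± 0.07 (adjusted p = 3.95e-12). *Cux2* went from 24.98, 20.5 and 24.6 CPM to 51.0, 47.2 and 44.5 CPM, a log2 fold change of 1.03 ± 0.08 (adjusted p = 3.55e-10). They were 2.52-fold and 2.04-fold higher, and their libraries did not overlap.

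*Fezf2* was the exception. Its level was 76.0, 62.1 and 73.4 CPM in Ctrl and 70.1, 72.1 and 67.3 CPM in +/+, and the libraries overlapped. The log2 fold change was -0.02 ± 0.08 (adjusted p = 0.871), with a 95% interval from -0.16 to 0.13, and its sign turned under several settings. The other members rose beyond this interval.

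Other cortical neuron factors were read beside the members from 3 lists. Of 12 deep-layer and subplate factors, 11 were higher at E12.5 and 1, *Foxp1*, did not pass the test, with a median log2 fold change of 1.64. Of 9 upper-layer factors 8 were higher, with a median of 1.12 over the list. Of 10 factors listed as those of postmitotic neurons in general 9 were higher and 1, *Id2*, lower, with a median of 3.08. *Id2* was at 60.6 CPM ± 6.22 in Ctrl and 35.1 ± 2.72 in +/+ (SD, n = 3 each). Its values thus went against the label of that list. All 12 pan-neuronal markers were higher, with a median of 3.26, their summed level being 253 to 446 CPM in Ctrl and 4330 to 5134 CPM in +/+. All 11 ventral telencephalon markers were higher too, with a median of 5.11. Of 10 diencephalon and midbrain markers tested, 5 were lower at E12.5, as were 35.9% of all genes, and 1, *Lhx9*, was higher. Their median was -1.27. The 12 markers of that list summed to 203 to 258 CPM in Ctrl and 169 to 179 CPM in +/+. The part that neuron number, ventral tissue, or diencephalon and midbrain tissue had in the members' values was not tested.

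The genotypes at E12.5 were then compared. The plot of levels by library shows the spread within each group. In +/-, replicate 1 was the highest of the group for 9 of 9 members. Replicate 2, the library high in diencephalon, midbrain, mesenchyme and meninges markers, was the lowest for 8 of 9. In neo/neo, replicate 2 was lowest for 8 of 9 and replicate 3 highest for 7 of 9. The 3 neo/- libraries lay close together: the coefficient of variation was at most 5.48%, for *Fezf2*.

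**Figure D2:**
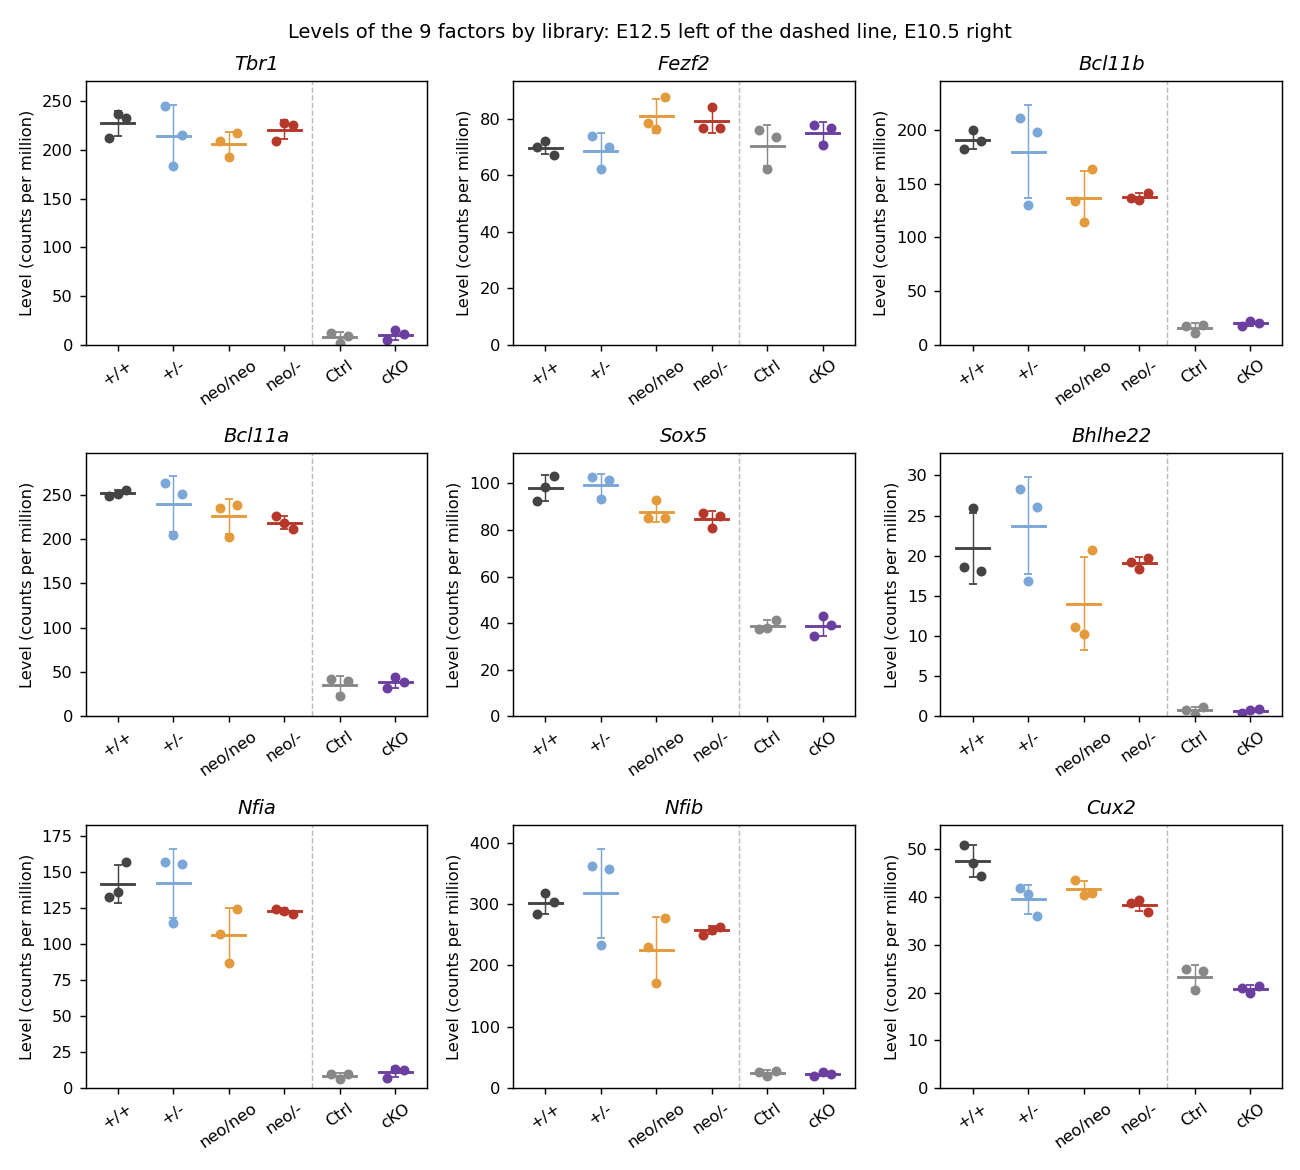
Level of each factor (vertical axis, CPM, from 0) in every library, with 4 genotypes at E12.5 left of the dashed line and Ctrl and cKO at E10.5 right of it. Points are libraries, bars the mean ± SD (n = 3); *Cux2* and *Sox5* lie lower in all 3 neo/- libraries than in all 3 +/+ libraries, and *Fezf2* lies higher.

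The groups also differed in what else they held. Summed pan-neuronal markers were 4330 to 5134 CPM in +/+, 4569 to 5168 in +/-, 3461 to 4122 in neo/neo and 3832 to 4391 in neo/-, so that neo/neo lay below +/+ without overlap. Radial glia markers summed to 3770 and 3864 CPM in neo/neo replicates 1 and 2, the highest of the E12.5 libraries, and to 3174 CPM in replicate 3, the lowest. The members summed to 1134 and 987 CPM in those same replicates 1 and 2, and to 1256 CPM in replicate 3. By their sex-linked genes neo/neo replicates 1 and 2 were female and replicate 3 male, so sex goes with this split. Intermediate progenitor markers differed little in their summed level, at 566 to 618 CPM over all 12 libraries. Against +/+, 1 of these 7, *Gadd45g*, rose in neo/neo (0.18 ± 0.05, adjusted p = 0.0479 by edgeR), as did 697 of all 18810 genes. In neo/- 0 of the 7 passed, where 11.5% of all genes did. Ventral telencephalon markers summed to 820 to 864 CPM in +/+, 714 to 845 in +/-, 679 to 804 in neo/neo and 646 to 803 in neo/-, so that both hypomorphs lay below +/+ without overlap. Of the 11 log2 fold changes against +/+ 10 were below 0 in neo/neo and 9 in neo/-. Only 1 marker, *Gad1*, which makes the transmitter GABA, fell in both (-0.40 ± 0.10 and -0.34 ± 0.10, adjusted p = 0.0318 and 0.0485 by edgeR). Of all genes, 4.45% fell in neo/neo and 5.99% in neo/-. How much of the members' values goes with neuron content or ventral tissue was not tested.

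**Figure D3:**
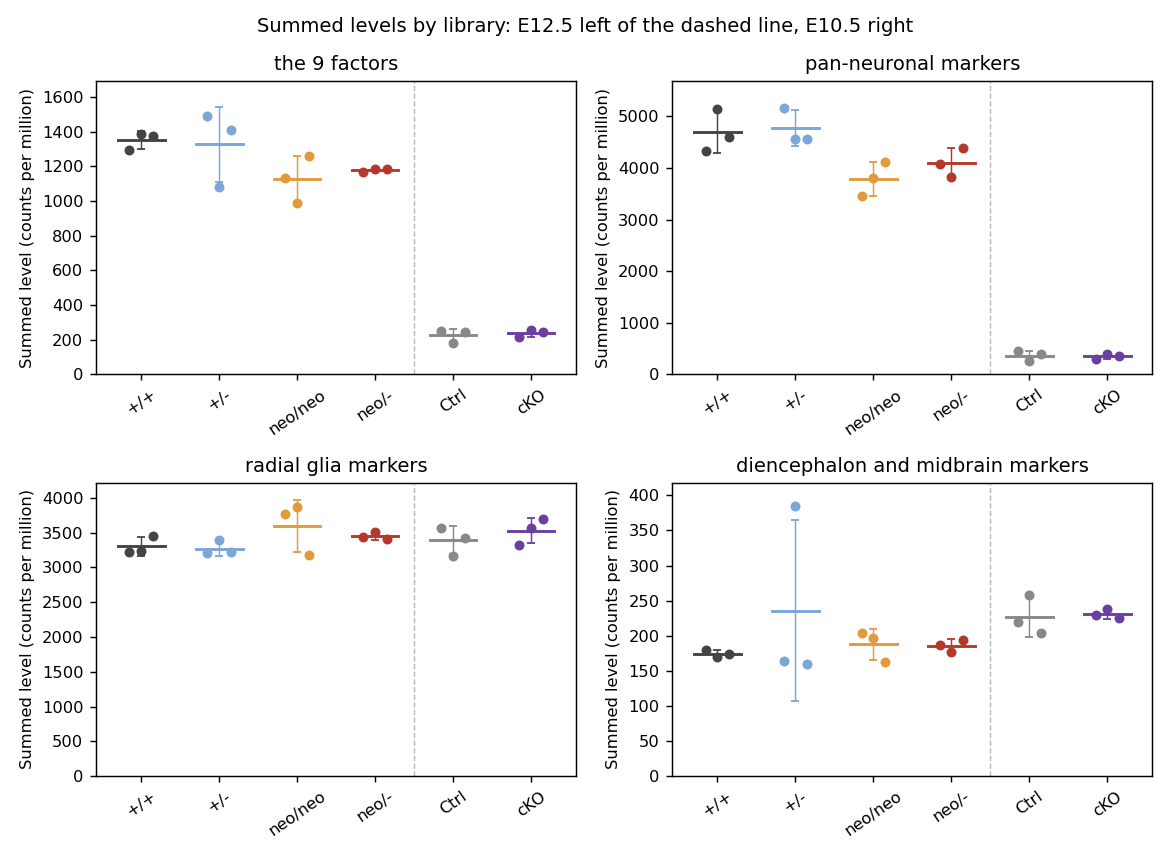
Summed level per library (vertical axis, CPM, from 0) of the 9 factors, 12 pan-neuronal, 10 radial glia and 12 diencephalon and midbrain markers, in the 6 groups (points are libraries, bars mean ± SD, n = 3, dashed line between E12.5 and E10.5). The members and pan-neuronal markers are low together in neo/neo and at E10.5, and +/- replicate 2 stands alone at 384 CPM in the last panel.

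In +/- against +/+, 0 of the 9 members passed edgeR's test, where 0.0213% of all 18810 genes did (4 genes). Only 1 member, *Cux2*, had an unadjusted p under 0.05 (6.33% of all genes). DESeq2 called 0 members and 12 of the 31427 genes it gave a p-value (0.0382%). Each DESeq2 share given here counts low-count genes that edgeR's filter left out, so it is not on the same base as the edgeR shares. The member median was -0.02, with 5 members below 0 and 4 above. *Cux2* was at 41.8, 40.7 and 36.1 CPM in +/- against 51.0, 47.2 and 44.5 CPM in +/+. Every +/- library was below every +/+ library, while 11.4% of all genes were free of overlap in either direction. The log2 fold change of -0.27 ± 0.06 had an adjusted p of 0.440. *Bhlhe22* and *Bcl11b* spread most in +/-, with coefficients of variation of 25.4% and 24.1%, and replicate 2 held *Bcl11b* at 131 CPM where the others held 211 and 199 CPM.

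In neo/neo against +/+, again 0 of the 9 passed, where 8.16% of all genes did; 5 had an unadjusted p under 0.05, as did 25.2% of all genes. The same +/+ libraries serve as the control for +/-, neo/neo and neo/-, so these comparisons are not independent of each other. Of the log2 fold changes 8 were below 0 and 1, that of *Fezf2*, above, with a median of -0.19 beside 0.01 over all genes. The neo/neo libraries lay outside the +/+ range for 6 members, 5 below and 1 above, against 25.9% of all genes, 13.6% below and 12.3% above. Those lower were *Bcl11b*, *Bcl11a*, *Nfia*, *Nfib* and *Cux2*.

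*Bcl11b*, the layer 5 factor, was at 134, 114 and 164 CPM in neo/neo against 183, 200 and 190 CPM in +/+ (log2 fold change -0.48 ± 0.18, adjusted p = 0.137). *Nfia* was at 107, 86.6 and 125 CPM against 132, 136 and 157 CPM (-0.42 ± 0.15, adjusted p = 0.115). *Bhlhe22* had the lowest value, -0.57 ± 0.29 (adjusted p = 0.268), from 11.1, 10.3 and 20.7 CPM against 18.6, 26.01 and 18.2 CPM. In all 3 genes replicate 3 of neo/neo was the highest and came nearest to +/+. Without it, *Bhlhe22* at -0.97 and *Nfia* at -0.56 passed the test, where 13.7% of all genes did, and the other 7 members did not. By their sex-linked genes neo/neo replicate 3 was male and replicates 1 and 2 female, while +/+ replicates 1 and 2 were male and replicate 3 female. Leaving out neo/neo replicate 3 thus left that group all female, and sex cannot be told apart from replicate there. *Nfib* was at 230, 171 and 277.02 CPM against 283.6, 318 and 303 CPM (-0.42 ± 0.19, adjusted p = 0.223), and *Bcl11a*, at 236, 202 and 239 CPM against 249, 251 and 255 CPM, differed by -0.16 ± 0.08 (adjusted p = 0.261). *Cux2*, at 43.6, 40.5 and 40.8 CPM, differed by -0.19 ± 0.06 (adjusted p = 0.0777). These 3 had every neo/neo library below +/+.

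*Fezf2* went the other way, at 78.5, 76.4 and 87.6 CPM in neo/neo against 70.1, 72.1 and 67.3 CPM in +/+. The libraries did not overlap, and the log2 fold change of 0.21 ± 0.07 had an adjusted p of 0.0643 by edgeR. DESeq2 called 3 members in this comparison, *Fezf2* at 0.21, *Cux2* at -0.19 and *Nfia* at -0.42. It called 2247 of the 31427 genes it gave a p-value (7.15%), a set without edgeR's filter. *Tbr1* was nearly level, at 209, 193 and 217 CPM (-0.14 ± 0.09, adjusted p = 0.355).

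In neo/- against +/+, 2 of the 9 members fell and 0 rose, where 11.5% of all genes passed, 5.99% falling and 5.48% rising. The member median was -0.21, beside 0.00 over all genes, and 8 of the 9 log2 fold changes were below 0. Groups were free of overlap for 7 members, 6 lower and 1 higher, against 33.4% of all genes, 17.2% lower and 16.2% higher. The only members whose libraries overlapped were *Tbr1* and *Bhlhe22*.

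*Cux2*, the upper-layer factor, was at 38.8, 39.4 and 36.9 CPM in neo/- against 51.0, 47.2 and 44.5 CPM in +/+. It fell by 0.31 ± 0.06 on the log2 scale (1.24-fold, adjusted p = 0.00753). Among the calls of members between genotypes, this alone held under all 16 settings, with log2 fold changes from -0.35 to -0.26 and adjusted p from 0.000309 to 0.0379. The 3 mutant genotypes at E12.5 had similar *Cux2* means: 39.5 ± 3.05 CPM in +/-, 41.6 ± 1.69 in neo/neo and 38.3 ± 1.32 in neo/- (SD, n = 3 each), against 47.5 ± 3.26 in +/+. The neo/- libraries overlapped those of +/- and lay below those of neo/neo, and neither difference passed the test (adjusted p = 0.742 and 0.633).

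*Sox5*, which orders the deep-layer fates, was at 87.2, 81.0 and 86.1 CPM in neo/- against 92.3, 98.5 and 103 CPM in +/+. It fell by 0.21 ± 0.05 on the log2 scale (1.16-fold, adjusted p = 0.0240). The call was lost when +/+ replicate 2, +/+ replicate 3, neo/- replicate 2 or neo/- replicate 3 was left out, with an adjusted p of at most 0.124. All 3 neo/- libraries were male by their sex-linked genes, and 4 of the other 9 at E12.5 female; with sex as a covariate in edgeR's fit *Cux2* at -0.31 and *Sox5* at -0.18 still passed, where 10.2% of all genes did. In neo/neo, *Sox5* was at 85.1, 92.9 and 85.2 CPM and overlapped +/+ (-0.16 ± 0.05, adjusted p = 0.0816).

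*Bcl11b* had the lowest log2 fold change in neo/-, -0.47 ± 0.18, from 137, 135 and 142 CPM, and its adjusted p was 0.130. Its libraries lay below +/+ without overlap. The fit pools the spread over all 4 genotypes, and the coefficient of variation of *Bcl11b* was 2.40% in neo/- and 4.61% in +/+, but 24.1% in +/- and 18.3% in neo/neo. *Bcl11a* was at 226, 219 and 212 CPM (-0.20 ± 0.08, adjusted p = 0.140) and also lay below +/+ without overlap. So did *Nfia*, at 125, 123 and 121 CPM (-0.21 ± 0.15, adjusted p = 0.427), and *Nfib*, at 250.06, 258 and 263 CPM (-0.23 ± 0.19, adjusted p = 0.519). Fitted on neo/- and +/+ alone, 7 members passed, where 14.7% of all genes did. These were *Bcl11b* at -0.47, *Cux2* at -0.31, *Bcl11a* at -0.20, *Nfib* at -0.23, *Sox5* at -0.21 and *Nfia* at -0.21, with *Fezf2* at 0.18. *Tbr1* and *Bhlhe22* remained outside the test there too. In the fit over all genotypes *Fezf2* had a log2 fold change of 0.18 ± 0.07 (adjusted p = 0.0923), from 76.8, 84.2 and 76.6 CPM in neo/-.

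*Tbr1*, the layer 6 factor, gave the smallest log2 fold change of the 9 in neo/-: -0.04 ± 0.09, with a 95% interval from -0.21 to 0.13. Its levels were 210, 228 and 226 CPM and overlapped those of +/+. *Bhlhe22* was at 19.2, 18.3 and 19.7 CPM, within the +/+ range (-0.13 ± 0.29), and its sign turned to 0.06 without +/+ replicate 2. The interval for *Bhlhe22* reached from -0.70 to 0.44, which holds the value seen in neo/neo.

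**Figure D4:**
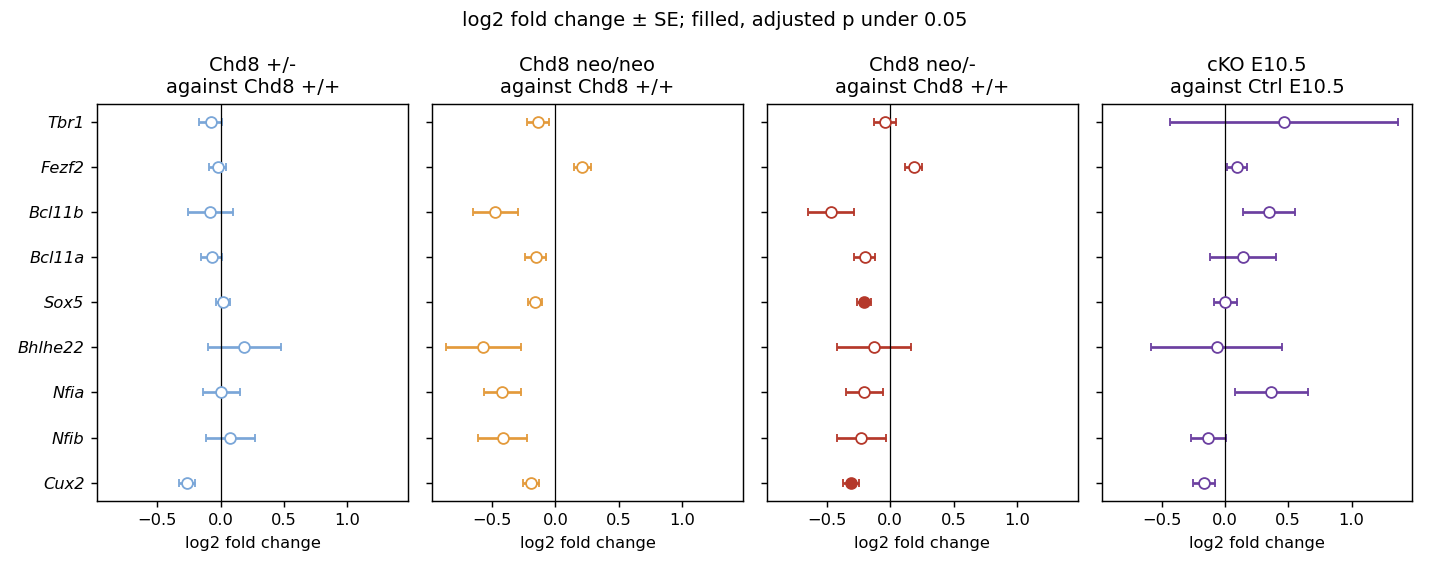
log2 fold change ± SE (horizontal axis, edgeR) of each factor in 4 comparisons, the first 3 sharing the +/+ libraries; filled points have an adjusted p under 0.05. The 2 filled points are *Sox5* at -0.21 and *Cux2* at -0.31 in neo/-, *Fezf2* lies right of 0 in neo/neo and neo/-, and the *Tbr1* bar in cKO spans 0.

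Both hypomorphs were also set against the heterozygote, whose libraries serve in both comparisons. For neo/neo against +/-, 0 of 9 members passed, where 5.28% of all genes (994) did, or 572 genes with the replicate number as a block; the block left the members at 0 and 5 had an unadjusted p under 0.05 without it, as did 23.2% of all genes. Libraries were free of overlap for 2 members, against 25.5% of all genes. *Sox5* was lower in every neo/neo library than in the +/- libraries at 103, 93.5 and 101 CPM (-0.18 ± 0.05, adjusted p = 0.0695), and *Fezf2* was higher (0.24 ± 0.07, adjusted p = 0.0551). *Nfia* (-0.42 ± 0.15) and *Bhlhe22* (-0.76 ± 0.29) overlapped between the groups. DESeq2 called *Fezf2* at 0.23, *Sox5* at -0.18 and *Nfia* at -0.43 here, where it called 5.71% of 31427 unfiltered genes. Without +/- replicate 2, *Bcl11b* at -0.58 and *Sox5* at -0.22 passed edgeR's test, where 3.61% of all genes did.

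For neo/- against +/-, *Sox5* fell by 0.23 ± 0.05 on the log2 scale (adjusted p = 0.0281) and was the 1 of 9 that passed, where 5.43% of all genes passed and 3.25% fell. Libraries were free of overlap for 2 members, *Sox5* and *Fezf2* (0.21 ± 0.07, adjusted p = 0.0865), against 30.8% of all genes. The *Sox5* call held in 9 of 16 settings and was lost with the replicate block, with the second sequencing run alone, and without any one library other than +/- replicate 2. Without that library 2 members passed, *Sox5* at -0.27 and *Bcl11b* at -0.57, where 3.63% of all genes did. Between the hypomorphs, neo/- against neo/neo, 0 of 9 passed, where 0.0159% of all genes (3) did. Among the members 0 had an unadjusted p under 0.05 (8.43% of all genes). DESeq2 called 0 members and 0.0827% of 31427 unfiltered genes. The libraries of 1 member, *Cux2*, did not overlap, against 15.2% of all genes. The largest value was that of *Bhlhe22*, 0.44 ± 0.29 (adjusted p = 0.705).

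The 31 other factors gave a wider reading of cortical neuron identity. Between neo/neo and +/+, where 8.16% of all genes passed and 4.45% fell, 5 of them fell and 0 rose: *Zeb2* (-0.29 ± 0.05, adjusted p = 0.00722) and *Foxp2* (-0.26 ± 0.06) of the deep-layer list, *Cux1* (-0.27 ± 0.06) and *Rorb* (-0.31 ± 0.08) of the upper-layer list, and *Sox11* (-0.20 ± 0.06). *Zeb2* acts in postmitotic cortical neurons, *Foxp2* marks layer 6, *Rorb* marks layer 4, and *Sox11* is made in newborn neurons generally. The median over all 31 was -0.17. Of the 16 settings, *Zeb2* was called in 16, *Foxp2* and *Cux1* in 14, *Rorb* in 8 and *Sox11* in 7. For neo/-, where 11.5% of all genes passed, 5 fell and 1 rose. *Zeb2* (-0.19 ± 0.05), *Foxp2* (-0.20 ± 0.06), *Cux1* (-0.44 ± 0.06), *Pou3f1* (-0.22 ± 0.06) and *Sox11* (-0.19 ± 0.06) fell. *Id2*, which also went against its list between the stages, rose by 0.29 ± 0.08. The median over all 31 was -0.15.

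*Cux1*, the paralogue of *Cux2*, was the most changed of these in neo/-, at 198 CPM ± 5.56 against 269 ± 24.98 in +/+ (SD, n = 3 each, adjusted p = 0.000622). *Cux1* was called in 16 of 16 settings, the others of these 6 in 8 to 10. Between +/- and +/+, 0 of the 31 passed. Against +/-, *Zeb2* (-0.35 ± 0.05), *Foxp2* (-0.37 ± 0.06), *Lmo3* (-0.26 ± 0.07) and *Rorb* (-0.38 ± 0.08) fell in neo/neo, 4 of 31, where 3.28% of all genes fell. *Foxp2* (-0.30 ± 0.06), *Zeb2* (-0.26 ± 0.05) and *Cux1* (-0.26 ± 0.06) fell in neo/- against +/-, 3 of 31, where 3.25% of all genes fell. Between neo/- and neo/neo, 0 of the 31 passed. Pan-neuronal markers fell against +/+ as well: *Map2*, *Dcx*, *Elavl4* and *Snap25*, 4 of 12, in neo/neo, and *Dcx* and *Map2*, 2 of 12, in neo/-. Of all genes, 4.45% fell in neo/neo and 5.99% in neo/-. Radial glia markers *Pax6* and *Sox2*, 2 of 10, rose in neo/neo, where 697 of all 18810 genes rose. In neo/- 0 of 10 passed, where 11.5% of all genes did. Erythroid markers were higher in neo/- (3 of 7 rose, as did 5.48% of all genes). Their summed level was 4458 to 6904 CPM against 3154 to 3843 CPM in +/+.

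At E10.5, 0 of the 9 members passed in cKO against Ctrl, where 11.4% of all 18435 genes did. Among the members 0 had an unadjusted p under 0.05 (27.4% of all genes). DESeq2 called 0 members and 9.0% of 29999 unfiltered genes. For every member the libraries of cKO and Ctrl overlapped, while 32.1% of all genes had no overlap. The median log2 fold change was 0.09, with 6 members above 0 and 3 below. The lowest was that of *Cux2*, at 20.9, 19.9 and 21.4 CPM in cKO against 24.98, 20.5 and 24.6 CPM in Ctrl (-0.17 ± 0.09, adjusted p = 0.247). Tissue content differed between these groups too. Markers of mesenchyme and meninges summed to 809 to 1003 CPM in cKO and 653 to 740 CPM in Ctrl, without overlap. Of these 7 markers 3 rose, as did 1060 of all 18435 genes. Ventral telencephalon markers summed to 11.5 to 19.3 CPM in cKO and 18.1 to 29.4 CPM in Ctrl. Of these 11 markers 1 fell, as did 1050 of all genes. The part that tissue content had in the members' values was not tested.

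Several members varied widely within the E10.5 groups. *Tbr1* was at 4.49, 15.1 and 11.2 CPM in cKO and at 11.9, 1.33 and 9.16 CPM in Ctrl, so its log2 fold change of 0.47 ± 0.90 became -0.02 without Ctrl replicate 2. That library was the lowest of Ctrl for 8 of 9 members, and cKO replicate 1 the lowest of cKO for 7 of 9. The same libraries had the lowest summed pan-neuronal markers of their groups, 253 CPM against 388 and 446 CPM in Ctrl, and 294 CPM against 359 and 392 CPM in cKO. Diencephalon and midbrain markers summed to 258 CPM in Ctrl replicate 2, against 219 and 203 CPM in the other Ctrl libraries. In cKO replicate 1 they summed to 229 CPM, against 238 and 225 CPM in the other cKO libraries. *Sox5*, *Fezf2* and *Cux2* varied less, with coefficients of variation between 3.60% and 11.4%. Of 31 other factors 29 were tested, and 1 fell, *Lmo3* (-0.30 ± 0.09, adjusted p = 0.0497, called in 6 of 14 settings).

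The change in cKO at E10.5 was then set against that in neo/- at E12.5 as an interaction in 1 fit of all 18 libraries. These changes differ in the *Chd8* alleles, in stage, dissection and pooling, in the control genotype and in the set. A difference between them cannot be assigned to any one of these. It was past the test for 0 of 9 members, where 6.79% of 19565 genes passed; 2 members, *Bcl11b* and *Sox5*, had an unadjusted p under 0.05, as did 22.2% of all genes. The value was highest for *Bcl11b*, 0.81 ± 0.30 (adjusted p = 0.125), which was 0.35 ± 0.20 in cKO and -0.47 ± 0.18 in neo/-. DESeq2 called this 1 member, at 0.84, where it called 5.7% of 32776 unfiltered genes. For *Cux2* the changes were -0.17 and -0.31, and the difference was 0.14 ± 0.11 (adjusted p = 0.477).

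Across the 12 E12.5 libraries some members varied together, as a description over libraries that share genotype and tissue content. *Nfia* and *Nfib* were most alike (Pearson r = 0.96 of log2 CPM, n = 12 libraries), followed by *Bcl11b* with *Nfib* (0.93) and *Bcl11b* with *Bcl11a* (0.92). *Fezf2* and *Sox5* were the least alike (r = -0.69). *Cux2* was at most 0.43 with any member, namely with *Bcl11a*.

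Outside the members, the 2 genes most like each were sought among 18153 genes. They were *Alms1-ps1* and *Slc17a7* for *Tbr1* (r = 0.92 and 0.89), *Zbtb17* and *Tmem121* for *Fezf2* (0.96 and 0.95), *Plxna2* and *E330009J07Rik* for *Bcl11b* (both 0.98), *Wnt7a* and *Banp* for *Bcl11a* (both 0.96), and *Pak3* and *Eif4g2* for *Sox5* (both 0.95). For *Bhlhe22* they were *Csmd3* and *Acat1* (both 0.97), for *Nfia* *Fstl5* and *Sh3rf3* (0.97 and 0.96), for *Nfib* *Epha5* and *Cnr1* (both 0.98), and for *Cux2* *Sdr39u1* and *Gm37303* (0.92 and 0.91). *Slc17a7* encodes a vesicular glutamate transporter, *Plxna2* a semaphorin receptor and *Epha5* an ephrin receptor. With so many genes compared over 12 libraries, high values arise readily, and no test was made.

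Some members share annotated sequence with other genes, and the counting at E12.5 used no strand setting. *Sox5* shares 1330 exon bases with the opposite-strand *Sox5os1*, which averaged 0.111 counts per library, and *Bcl11a* shares 316 with *4930538E20Rik*, at 44.9 counts. *Cux2* shares 414 exon bases with an unnamed gene on the same strand that was assigned 0 counts. *Nfia* shares 4 exon bases with *E130114P18Rik*. The other 5 members share none. The members' outermost positions in GRCm38 were chr2:61802930-61814114 (*Tbr1*), chr14:12341892-12345865 (*Fezf2*), chr12:107910403-108003602 (*Bcl11b*), chr11:24078056-24174123 (*Bcl11a*), chr6:143828425-144781977 (*Sox5*), chr3:18054174-18057517 (*Bhlhe22*), chr4:97772734-98118874 (*Nfia*), chr4:82290173-82705750 (*Nfib*) and chr5:121856366-122050102 (*Cux2*).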

How the data were processed

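Total RNA from brain tissue was converted to paired-end cDNA libraries with strand-marking dUTP. Per the labels, the authors used FastQC 0.11.2, Trim Galore 0.4.1, TopHat2 2.1.0 and featureCounts 1.5.0 with build GRCm38.p4 (mm10), and deposited raw read counts per gene and sequencing run. The header of the E12.5 table names Ensembl release 82 and shows no strand option; the setting at E10.5 is not given in the sources used here. The authors tested with DESeq2.

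The 2 runs of each library were summed. With edgeR 4.0.16, genes were filtered by filterByExpr, scaled by TMM and tested with the robust quasi-likelihood F test and Benjamini-Hochberg adjustment over all genes (threshold 0.05). The 12 E12.5 libraries shared 1 fit, the 6 E10.5 libraries another, and the stage contrast and the interaction came from all 18. SE is the log2 fold change over the root of F, and 95% intervals take the estimate as normal. Alternatives were DESeq2 1.42.0, other scalings, no filter, single runs, sex, the replicate number as a block, only the groups compared, and leaving out each library. Replicate numbers deviated together only for neo/neo and +/- (correlations of same-numbered libraries 0.18, 0.26 and 0.29), with no pairing in the labels.

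The members and lists were chosen with earlier results of these data known. Named genes are all members, *Chd8*, up to 4 called genes per list and comparison of the other factors (all are named in each comparison of genotypes), and the 2 genes most like each member among those averaging at least 10 reads, on log2(CPM + 1). The labels do not tie replicates to litters, so p-values cover the spread between these libraries. Some genes of the lists are counted in these totals but not reported here by name.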

Additional observations from a re-analysis of the deposited data

How the results depend on the processing

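The number of members called changed with the setting. For neo/neo against +/+ it was 0, but 3 with DESeq2, 2 without the filter, 1 with the first run alone, 2 with the replicate block, and 0 to 2 when each library was left out. For neo/- against +/+ it was 2, but 7 with only the groups compared, and 1 to 2 with a library left out. For neo/neo against +/- it was 0, but 3 with DESeq2, 2 without the filter, 1 with the first run alone, and 0 to 2 with a library left out. For neo/- against +/- it was 1, but 0 with the second run alone, 0 with the replicate block, and 0 to 2 with a library left out. For the interaction it was 0, but 1 with DESeq2. The stage contrast gave 8 under each alternative run, and +/- against +/+, neo/- against neo/neo and cKO against Ctrl gave 0. The block changed no other count of members called; over all genes it moved 4 calls to 2 in +/- against +/+ and 994 to 572 in neo/neo against +/-, and no other count by over 1.5 times.

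The log2 fold change of *Fezf2* between the stages turned to 0.0016 with DESeq2, 0.0018 with RLE scaling, 0.0073 with only the groups compared, and ran from -0.0992 to 0.0418 with a library left out. With a library left out, that of *Bhlhe22* in neo/- ran from -0.213 to 0.0621 and that of *Tbr1* in cKO from -0.0206 to 0.956.

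Counts over all genes moved too. For neo/neo against +/+ 1534 became 430 with only the groups compared, 1005 with sex as a covariate, and 435 (without neo/neo replicate 2) to 2605 (without neo/neo replicate 3) with a library left out. For neo/- against +/+ 2158 became at least 1015, without neo/- replicate 2. For neo/neo against +/- 994 became 1796 with DESeq2, 387 with sex, 42 with only the groups compared, and 23 to 2100 without neo/neo replicate 2 or 3. For neo/- against +/- 1021 became 1668 with DESeq2, 676 with the first run and as few as 244 without neo/- replicate 1. For +/- against +/+ 4 became 12 with DESeq2 and 1 with only the groups compared, and for neo/- against neo/neo 3 became 26 with DESeq2, 9 without the filter, 1 with only the groups compared and 23 without neo/neo replicate 3. Without cKO replicate 2, the cKO count of 2110 became 538 and the interaction count of 1329 became 533. The cause was not tested.

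With 3 libraries a group, the SE in neo/neo against +/+ ranged from 0.05 (*Sox5*) to 0.29 (*Bhlhe22*), so small differences were not detectable in the members that spread most. After seeing the data, the counts of members with no overlap were recomputed under 2 other scalings, and 1 moved, from 6 to 7 in neo/neo against +/+ without scaling factors.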
